A study of Drosophila melanogaster with 15 samples.

Results

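Heads of elav/v105975 flies, in which the neuronal driver elav-Gal4 and the hairpin transgene v105975 against Clic were combined, were set against heads of v105975/+ flies, which carried the same hairpin transgene and no driver. The rule took the 5 arrays titled for each of these genotypes, 10 of the 15 arrays of the series, with all 16322 probesets of the array, and the test was run on these 10 arrays alone. The remaining 5 arrays held elav/+ heads, which carried the driver and no hairpin, and their levels are given beside those of the tested genotypes without a test. All RNA was total RNA of whole heads. Age, sex and the strain to which each parent was crossed are not stated, nor is it stated whether arrays of 1 genotype stem from independent crosses, and p-values therefore measure the spread between these arrays, which may be technical. The elav/v105975 genotype also differed from v105975/+ by the driver and the chromosomes that came with it, so that effects of the driver and of the driven hairpin cannot be told apart within the 10 arrays.

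Gal4 is a yeast transcription factor that binds UAS sites and turns on the transgene behind them, and the elav promoter supplies it in neurons. A hairpin transcript made in this way is cut by Dicer into small interfering RNAs that direct Argonaute to messages of matching sequence. Clic is the only fly member of the chloride intracellular channel proteins, which resemble glutathione S-transferases and can be soluble or inserted in membranes. The comparison asks which transcripts differ in the head when the hairpin against this gene is driven rather than carried without a driver.

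Clic was lower in every elav/v105975 array than in any v105975/+ array. On the log2 scale its intensity was 8.42, 8.28, 8.35, 8.50 and 8.44 in elav/v105975, against 8.85, 8.97, 8.96, 8.86 and 9.05 in v105975/+. In elav/v105975 Clic stood at 68.7% of its v105975/+ level (log2 difference -0.54, standard error 0.0592, adjusted p = 0.00299 from limma, 95% confidence interval 62.7% to 75.2%). Neurons are only some of the cells of the heads from which RNA was taken, and in such bulk RNA fewer cells of a type and less RNA per cell cannot be told apart. The elav/+ arrays, outside the fit, ran from 9.09 to 9.23 and so lay above both genotypes. The call was kept without any single array (adjusted p of at most 0.016 from limma).

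The gene whose promoter gives the driver stood slightly higher, without a call, where the driver was present together with the hairpin. Intensities of elav, an RNA-binding protein of neurons, were 9.997, 10.02, 9.96, 9.95 and 9.91 in elav/v105975 and 9.86, 9.88, 9.85, 9.78 and 9.76 in v105975/+. The groups did not overlap (exact two-sided permutation test, p = 0.00794, the smallest that 5 against 5 arrays can give), as was so for 2.3% of all probesets. With a log2 difference of 0.14 elav was not among the calls (adjusted p = 0.384 from limma). In elav/+, which shares the driver, elav ranged from 9.84 to 9.93. The gene tio, next to which transgenes of this hairpin library can be inserted, overlapped between the groups, at 6.36, 6.67, 6.59, 6.59 and 6.50 in elav/v105975 and 6.50, 6.54, 6.30, 6.60 and 6.26 in v105975/+ (log2 difference 0.10, adjusted p = 0.763 from limma).

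Across the array, 60 of 16322 probesets passed an adjusted p of 0.05 (limma, Benjamini-Hochberg), which is 0.368% of those tested. Of these, 33 were higher in elav/v105975 (0.202%) and 27 were lower (0.165%). Values repeat between some probesets. The calls held 51 distinct profiles, 25 higher and 26 lower, since 9 probesets without a name had identical values in every array and a pair with several symbols did too. An unadjusted p under 0.05 was reached by 1433 probesets (8.78%), and the groups did not overlap for 376 (2.3%), 202 higher (1.24%) and 174 lower (1.07%), which include all 60 called. These shares are the background for the list counts and single genes given below. At least 1.5-fold differences made up 33 of the calls and at least 2-fold differences 19. The 9 probesets with identical values, at a log2 difference of 1.26, are counted 9 times in each. The median log2 difference over all probesets was -0.0035, with 48.5% of probesets above 0. Quantile normalization makes array distributions alike, so these 2 values cannot show a shift shared by most transcripts. The median absolute difference was 0.0706, and so most transcripts stood close to each other in the 2 genotypes after normalization.

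**Figure D1:**
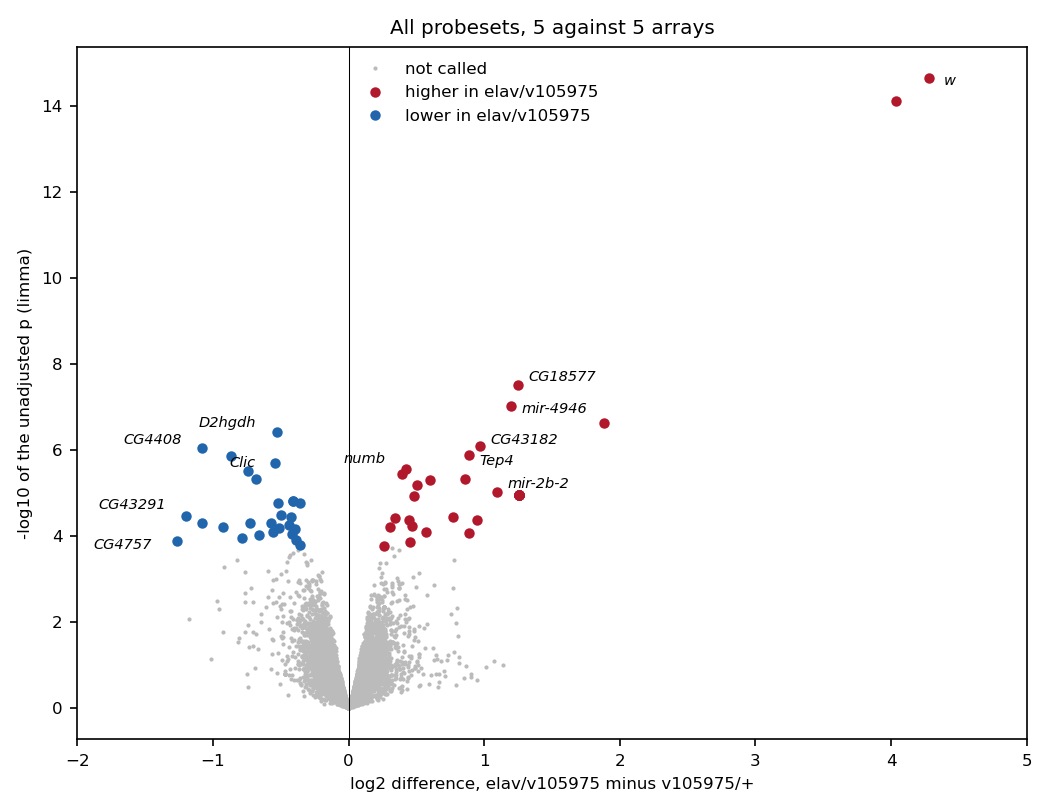
Log2 difference of elav/v105975 minus v105975/+ (horizontal axis) against -log10 of the unadjusted limma p (vertical axis) for all 16322 probesets. Red points mark the 33 probesets called higher in elav/v105975 and blue points the 27 called lower. The gene w stands far to the right at 4.28, beside a probeset without a gene name at 4.04, while most calls lie within 1.3 of 0.

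The arrays did not divide by genotype along the main axes of variation. Over the 10 arrays, principal components 1 and 2 held 17.8% and 16.5% of the variance, and neither separated the genotypes (exact permutation test, p = 0.206 and p = 0.151). Component 3 held 13.3%, with p = 0.0238 in the exact permutation test. Log2 medians of the arrays of the series ran from 6.16 to 6.24, and each array correlated at 0.993 to 0.995 with the others of its genotype.

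A gene name was held by 40 of the called probesets, 19 higher and 21 lower in elav/v105975. Another 4 carried several symbols and 16 had no name. Leaving out each of the 10 arrays in turn kept 33 of the 60 calls throughout. The 9 unnamed probesets with identical values and the identical pair with several symbols were among the 33. So were 16 named genes. These were w, CG18577, mir-4946, mir-2b-2, CG43182, Tep4, tut, CG17684, CG5639, mir-4954 and numb, all higher in elav/v105975, and CG4408, ACXC, Clic, D2hgdh and CG40498, all lower. The other 24 named genes lost the call without at least 1 array, and for each of them described here the arrays in question are given. The plot of single arrays shows 12 of the 40 genes.

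**Figure D2:**
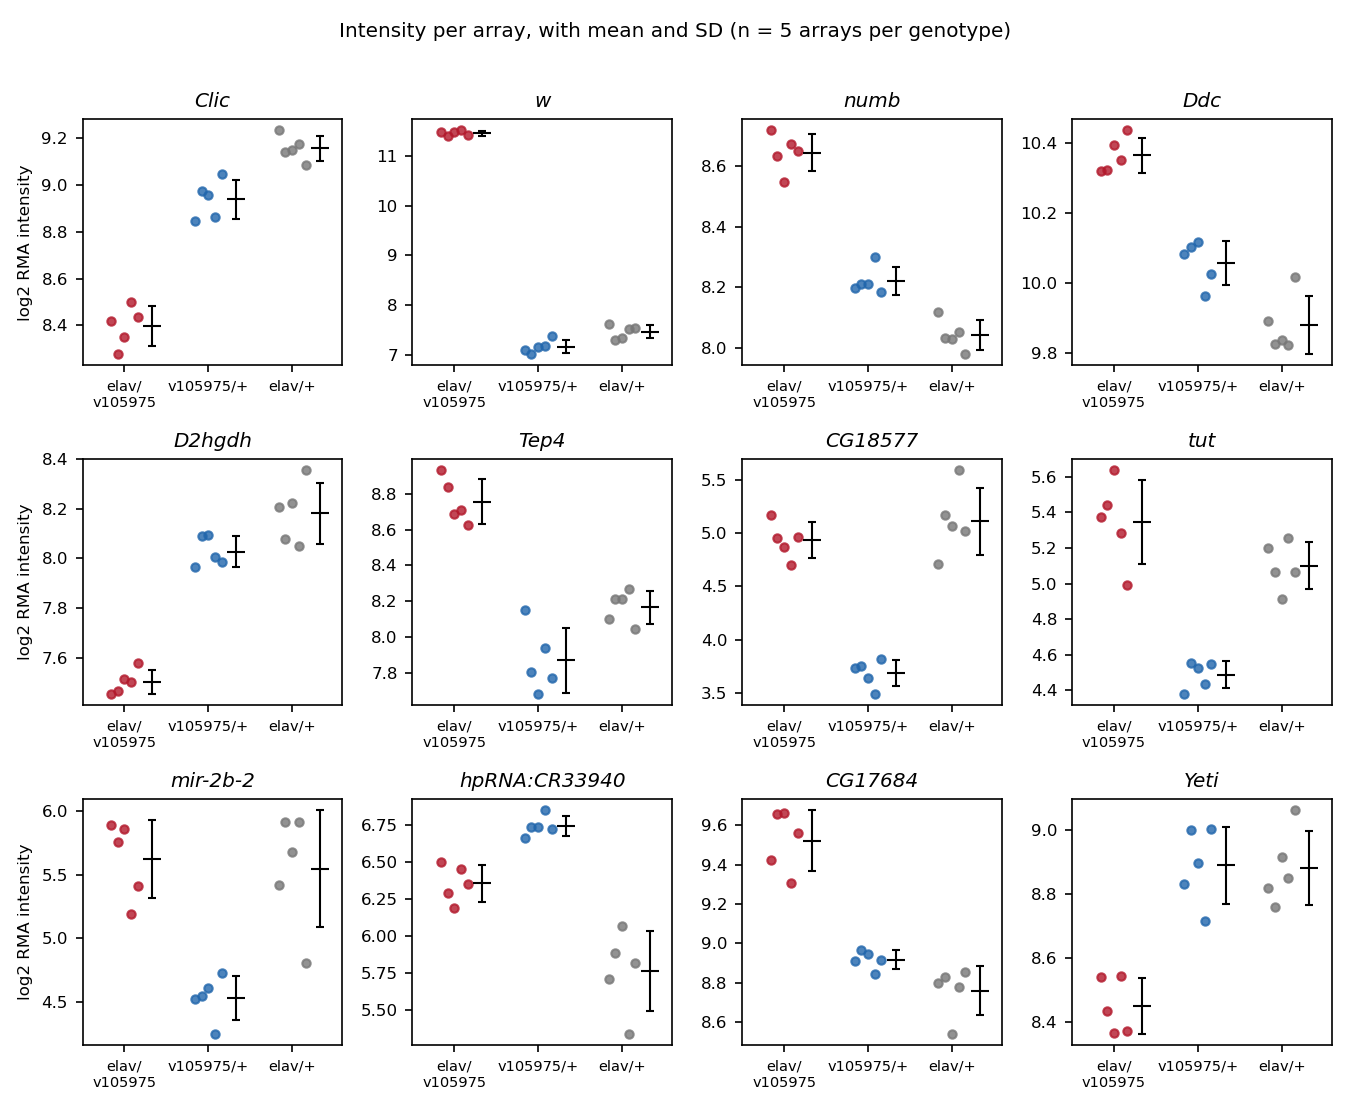
Log2 RMA intensity (vertical axis) of 12 called genes in each array, by genotype (horizontal axis: elav/v105975 in red, v105975/+ in blue, elav/+ in grey), with the mean and SD of the 5 arrays beside the points. The red and blue points do not overlap for any gene shown, and the grey points of elav/+ fall now near the red (CG18577, mir-2b-2), now near the blue (w, Yeti) and now beyond either (Clic, hpRNA:CR33940).

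The largest difference was that of w, the transporter subunit that brings pigment precursors into eye cells, of which fly transgenes carry a shortened copy as a marker. By the study's account elav/v105975 flies carry more copies of this marker than elav/+ flies. Its intensity was 11.47, 11.39, 11.48, 11.51 and 11.42 in elav/v105975 and 7.11, 7.02, 7.16, 7.18 and 7.38 in v105975/+. The difference was 19.4-fold (log2 difference 4.28, adjusted p = 3.74e-11 from limma, standard error 0.066). The mean of elav/+ was 7.47, close to that of v105975/+. Of the 20 measured genes of eye pigment, w alone was called, and se, an enzyme of the red pteridine pigments, overlapped between the genotypes with a log2 difference of 0.52 (adjusted p = 0.426 from limma). The eye colour gene mah was also called, at 5.73, 5.46, 6.08, 5.81 and 5.31 in elav/v105975 and 5.15, 4.63, 4.70, 4.77 and 4.71 in v105975/+ (log2 difference 0.89, standard error 0.146, adjusted p = 0.0275 from limma). Its nearest arrays were 5.31 in elav/v105975 and 5.15 in v105975/+, and the call was lost without any of elav/v105975 replicates 1 to 4 or v105975/+ replicates 2 to 5 (adjusted p of at most 0.0958). In elav/+ the mean of mah was 6.18, above both.

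Of the probesets without a gene name, 18219381 followed w in size, with 7.31, 7.49, 7.37, 7.48 and 7.31 in elav/v105975 and 3.44, 3.27, 3.29, 3.53 and 3.24 in v105975/+ (log2 difference 4.04, adjusted p = 6.18e-11 from limma). In contrast to w, its level in elav/+ was high, between 6.86 and 7.18. Probeset 18194193 was at 5.32, 4.94, 5.34, 4.62 and 4.58 in elav/v105975 and 3.33, 2.78, 3.03, 3.12 and 3.12 in v105975/+, and at 3.25 in elav/+ (log2 difference 1.88, adjusted p = 7.59e-04 from limma). The 2 lowest unnamed probesets, 18183824 and 18173921, fell by 0.87 and 0.74 in elav/v105975 (adjusted p = 0.00225 and 0.00389 from limma). These 4 were picked by the size of their difference.

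Genes of the nervous system gave few calls. The numb gene, whose product is shared out unequally at cell division and inhibits Notch, was at 8.72, 8.63, 8.55, 8.67 and 8.65 in elav/v105975 and 8.20, 8.21, 8.21, 8.30 and 8.19 in v105975/+. The difference was 1.34-fold (log2 difference 0.42, adjusted p = 0.00384 from limma, standard error 0.0481), and the mean of elav/+, 8.04, lay below both genotypes. Of 20 measured genes of the Notch pathway no other was called. Among those, E(spl)mbeta-HLH, a transcriptional repressor that Notch induces, did not overlap between the groups but was not called (log2 difference -0.24, adjusted p = 0.186 from limma), and spdo, which acts with numb in Notch signalling, stood at -0.29 (adjusted p = 0.438). None of the 5 measured genes on either side of numb on chromosome arm 2L was called, with log2 differences from -0.22 to 0.19.

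Ddc, the decarboxylase of dopamine and serotonin synthesis, was higher in elav/v105975 by a smaller step. It was at 10.32, 10.32, 10.40, 10.35 and 10.44 in elav/v105975 and 10.08, 10.10, 10.12, 9.96 and 10.02 in v105975/+, a 1.24-fold difference (log2 difference 0.31, standard error 0.0489, adjusted p = 0.0219 from limma). Its call was lost without any array other than v105975/+ replicate 3 (adjusted p of at most 0.0792). In elav/+ the mean was 9.88, below both genotypes. Of 27 measured genes of dopamine, serotonin and octopamine no other passed. Tyrosine hydroxylase, encoded by ple, overlapped between the groups (log2 difference 0.18, adjusted p = 0.655 from limma). The gene veli, a PDZ scaffold of cell junctions and synapses, was at 7.98, 7.87, 7.99, 8.04 and 7.82 in elav/v105975 and 7.30, 7.54, 7.53, 7.61 and 7.48 in v105975/+ (log2 difference 0.45, adjusted p = 0.018 from limma), a call lost without elav/v105975 replicate 1, 3 or 4 or v105975/+ replicate 2 or 5 (at most 0.0653).

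No list of neuronal machinery held a call beyond these. Of 22 measured genes of synaptic vesicle release, 22 of voltage-gated channels and 37 of neuropeptides none was called by limma. At an unadjusted p under 0.05 these lists held 2, 3 and 0 genes, and their median log2 differences were 0.04, 0.01 and 0.01. Of 17 measured chloride channel genes Clic alone was called, as it was of 30 genes linked to ethanol behaviour.

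No marker gene of a cell type in the head was called. Transcripts of head cell types were present, with mean intensities in elav/v105975 and v105975/+ of 9.10 and 9.08 for brp, a protein of the presynaptic active zone, 12.12 and 12.10 for ninaC, a photoreceptor myosin, and 7.49 and 7.52 for repo, a glial transcription factor. The lists held 7 neuron, 9 glia, 22 photoreceptor, 9 fat body, 11 muscle and 6 hemocyte markers, and none of these passed in limma, with 2, 1, 2, 1, 3 and 1 at an unadjusted p under 0.05. The mean of the neuron markers ran from 10.25 to 10.36 over elav/v105975 arrays and from 10.22 to 10.29 over v105975/+ arrays, and that of the glia markers from 8.71 to 8.89 and from 8.76 to 8.89. Muscle markers had a median log2 difference of 0.13, with 8 of 11 above 0, and their mean ran from 7.83 to 7.93 in elav/v105975 and from 7.74 to 8.03 in v105975/+. Act88F, the actin of flight muscle, stood at -0.53 (adjusted p = 0.295).

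Fat body markers differed between replicates in the same way in both genotypes. Their mean was 9.20, 9.30, 9.12, 9.70 and 9.87 in elav/v105975 and 9.20, 9.08, 9.19, 9.65 and 9.67 in v105975/+, so that replicates 4 and 5 were high in both. In elav/+ it was 10.02, 9.48, 9.60, 9.61 and 9.76, highest in replicate 1. The list of 7 genes of sex-biased expression shares Yp1, Yp2 and Yp3 with the fat body list and so is not a separate observation. None of the 7 reached an unadjusted p under 0.05. They averaged 8.77 to 8.90 in replicates 1 to 3 of elav/v105975 and 9.21 and 9.34 in replicates 4 and 5, against 8.82 to 8.88 and 9.02 and 9.12 in v105975/+. The part of this in the calls was not tested, beyond the fit with the replicate number as a block.

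Genes of metabolism were called singly. D2hgdh, a mitochondrial dehydrogenase that oxidizes D-2-hydroxyglutarate, had the smallest p of the genes lower in elav/v105975. It was at 7.45, 7.47, 7.51, 7.50 and 7.58 in elav/v105975 and 7.96, 8.09, 8.09, 8.004 and 7.98 in v105975/+, a level of 69.5% (95% confidence interval 64.5% to 74.8%, log2 difference -0.52, adjusted p = 0.00102 from limma). Its elav/+ mean was 8.18. The other 21 measured genes of glycolysis and 2-hydroxyglutarate were not called, and 1 of the 22, D2hgdh itself, had an unadjusted p under 0.05.

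ND2, a complex I subunit encoded in the mitochondrial genome, was at 10.82, 10.56, 10.76, 10.84 and 10.76 in elav/v105975 and 11.07, 11.35, 11.36, 11.20 and 11.25 in v105975/+ (log2 difference -0.50, standard error 0.0736, adjusted p = 0.0158 from limma). The call was lost without elav/v105975 replicate 3 or v105975/+ replicate 2 (at most 0.0539). In elav/+ the mean was 10.57, so that v105975/+ stood above both genotypes with the driver. ND3 of the same complex showed log2 levels of 7.86 to 8.03 in elav/v105975 and 8.11 to 8.58 in v105975/+, which do not overlap, but missed the threshold (adjusted p = 0.0703). The median log2 difference of the 12 measured mitochondrial genes was -0.03, and of 80 nuclear genes for oxidative phosphorylation subunits none was called by limma, with 4 at an unadjusted p under 0.05.

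Among the families that handle foreign compounds, 1 gene was called. Ugt35C1, a UDP-glycosyltransferase, was at 6.01, 5.88, 5.78, 6.38 and 5.69 in elav/v105975 and 6.61, 6.74, 6.65, 6.73 and 6.65 in v105975/+ (log2 difference -0.73, standard error 0.112, adjusted p = 0.0193 from limma). Replicate 4 of elav/v105975 stood nearest to v105975/+, and the call was lost without elav/v105975 replicates 1 to 3 or v105975/+ replicates 2 to 5 (at most 0.0707). Of 35 measured UDP-glycosyltransferases it was the only call, and of 87 cytochromes P450, 37 glutathione S-transferases and 28 antioxidant genes none passed in limma. At an unadjusted p under 0.05 these last lists held 10, 6 and 3 genes, beside 8.78% of all probesets. Of these genes 7, 4 and 2 were lower in elav/v105975, while the medians of the lists were 0.03, 0.02 and -0.0041.

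Immune genes differed in both directions. Tep4, a thioester protein secreted into the blood, was at 8.93, 8.84, 8.69, 8.71 and 8.62 in elav/v105975 and 8.15, 7.80, 7.68, 7.94 and 7.77 in v105975/+. The difference was 1.85-fold (log2 difference 0.89, adjusted p = 0.00225 from limma, standard error 0.0929), with a mean of 8.17 in elav/+. Some other genes of the thioester, clotting and melanization list stood lower without passing the test. The clotting gene fon had a log2 difference of -0.82 (adjusted p = 0.0861), and the prophenoloxidases PPO2 and PPO1, which make melanin, -0.56 (adjusted p = 0.22) and -0.48 (adjusted p = 0.38). Of the 25 genes measured, Tep4 was the only call, and 10 had a log2 difference above 0, with a median of -0.05. At an unadjusted p under 0.05 the list held 5 genes, 2 higher (Tep4 among them) and 3 lower in elav/v105975.

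BomS3, 1 of the short secreted Bomanin peptides that Toll signalling induces, was lower in elav/v105975. It was at 10.51, 10.18, 10.34, 10.39 and 10.54 in elav/v105975 and 10.86, 10.91, 10.89, 11.11 and 10.77 in v105975/+ (log2 difference -0.51, standard error 0.0822, adjusted p = 0.0227 from limma). The call was lost without elav/v105975 replicates 2 to 4 or v105975/+ replicates 1 to 4 (at most 0.0792), and in a fit of all 15 arrays (adjusted p = 0.0522). The Bomanins are close relatives, and probes may be shared between them. Of 37 genes for antimicrobial peptides and peptidoglycan recognition, BomS3 was the only call. Of the 37, 9 had a log2 difference above 0, and the list's median was -0.12, against -0.0035 over all probesets. At an unadjusted p under 0.05 the list held 3 genes, all lower, beside 8.78% of all probesets. Its array means overlapped, at 6.45 to 6.87 in elav/v105975 and 6.62 to 7.02 in v105975/+. Other members with low values were BomS5 at -0.72 (adjusted p = 0.209) and BomBc3 at -0.51 (adjusted p = 0.256).

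Secreted proteases of the trypsin family, grouped after their values were seen by the SP and SPH numbers among their RefSeq names, held 4 called genes beside 248 that were not called, a share of 1.59%, against 0.276% of protein-coding probesets. CG3088 and CG4914 were higher in elav/v105975 and CG31326 and CG9631 were lower. CG4914 had the largest step, at 5.58, 5.25, 5.67, 5.54 and 5.12 in elav/v105975 and 4.80, 4.31, 4.56, 4.11 and 4.65 in v105975/+ (log2 difference 0.94, adjusted p = 0.018 from limma), and lost its call without elav/v105975 replicate 1, 3 or 4 or v105975/+ replicate 2 (at most 0.0618). CG3088 was abundant in both genotypes, with means of 11.94 and 11.60 (adjusted p = 0.0169), and lost its call without elav/v105975 replicates 1 to 3 or v105975/+ replicate 4 (at most 0.0611). The calls of the lower pair were also lost, that of CG31326 without any elav/v105975 array or v105975/+ replicate 1 or 2, and that of CG9631 without elav/v105975 replicates 1 to 3 or 5 or v105975/+ replicates 2 to 5 (at most 0.103 for each). The median log2 difference of the group was -0.04.

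Heat shock genes were lower in 1 member. Hsp70Bbb, a stress-induced chaperone, was at 4.61, 4.25, 4.78, 5.07 and 4.48 in elav/v105975 and 5.60, 6.05, 5.97, 5.67 and 5.32 in v105975/+ (log2 difference -1.08, standard error 0.167, adjusted p = 0.0193 from limma). In elav/+ its mean was 4.42, so that v105975/+ stood above both genotypes with the driver. The call was lost without elav/v105975 replicates 1 to 3 or 5 or v105975/+ replicates 2 to 4 (at most 0.0681), and in a fit of all 15 arrays (0.0553). Copies of Hsp70 are nearly identical in sequence, so the signal cannot be given to a single copy. A probeset that carries the symbols of 4 other Hsp70 copies was called in the same direction (log2 difference -0.57, adjusted p = 0.0196), a call lost without elav/v105975 replicates 1 to 3 or 5 or v105975/+ replicate 2 or 5 (at most 0.0681). Hsp26, a small heat shock protein, stood at -0.53 (adjusted p = 0.38). The median over the 21 measured heat shock genes was -0.03, with 9 above 0 and 2 at an unadjusted p under 0.05, both lower. The list's array means, which include Hsp70Bbb, did not overlap, at 6.68 to 6.72 in elav/v105975 and 6.74 to 6.83 in v105975/+. They ran from 6.58 to 6.70 in elav/+.

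Genes of cytosolic ribosomal proteins stood lower in elav/v105975 by small steps, without a call. Of 47 measured, 46 had a log2 difference below 0 (RpL36A was the exception), whereas 48.5% of all probesets were above 0. None passed the adjusted threshold in limma (1 did in the fit of all 15 arrays and with an intensity trend) and 16 had an unadjusted p under 0.05, all of them lower. RpS13 was at 11.73 to 11.81 in elav/v105975 and at 11.92 to 11.99 in v105975/+ (log2 difference -0.19, adjusted p = 0.138), and RpS26 at 7.51 to 7.66 and at 7.76 to 7.85 (log2 difference -0.21, adjusted p = 0.174). The mean over the list was 9.10, 9.08, 9.12, 9.01 and 9.13 in the elav/v105975 arrays and 9.21, 9.21, 9.26, 9.17 and 9.18 in the v105975/+ arrays. These means did not overlap, and those of elav/+ ran from 9.19 to 9.28. The median was -0.10 for cytosolic ribosomal proteins, but 0.01 for the 73 measured genes of mitochondrial ribosomal proteins, of which none was called and 5 had an unadjusted p under 0.05.

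Clock genes of the list were not called in limma either, with 4 of 14 lower at an unadjusted p under 0.05, beside 8.78% of all probesets in either direction. The list's median was -0.05, and its array means overlapped, at 8.77 to 8.87 in elav/v105975 and 8.78 to 8.92 in v105975/+. The period gene per, which represses its own transcription, was at 8.20 to 8.42 in elav/v105975 and 8.51 to 8.66 in v105975/+ (log2 difference -0.27, adjusted p = 0.175), and vri, a repressor of Clk, was at 10.10 to 10.35 and 10.38 to 10.51 (log2 difference -0.22, adjusted p = 0.279). Neither gene overlapped between the groups, which held for 2.3% of all probesets. The partner of per, tim, stood at -0.28 and the activator Clk at 0.27, and both overlapped. Cipc, named for a mammalian protein that binds CLOCK, was called and was lower in elav/v105975, at 8.91, 8.99, 8.93, 9.09 and 8.996, against 9.36, 9.34, 9.23, 9.41 and 9.54 in v105975/+ (log2 difference -0.39, adjusted p = 0.0228 from limma). Its call was lost without elav/v105975 replicates 1 to 3 or 5 or v105975/+ replicates 1, 2 or 4 (at most 0.0843) and in the fit of all 15 arrays (0.225). The time of day at which heads were taken is not stated.

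**Figure D3:**
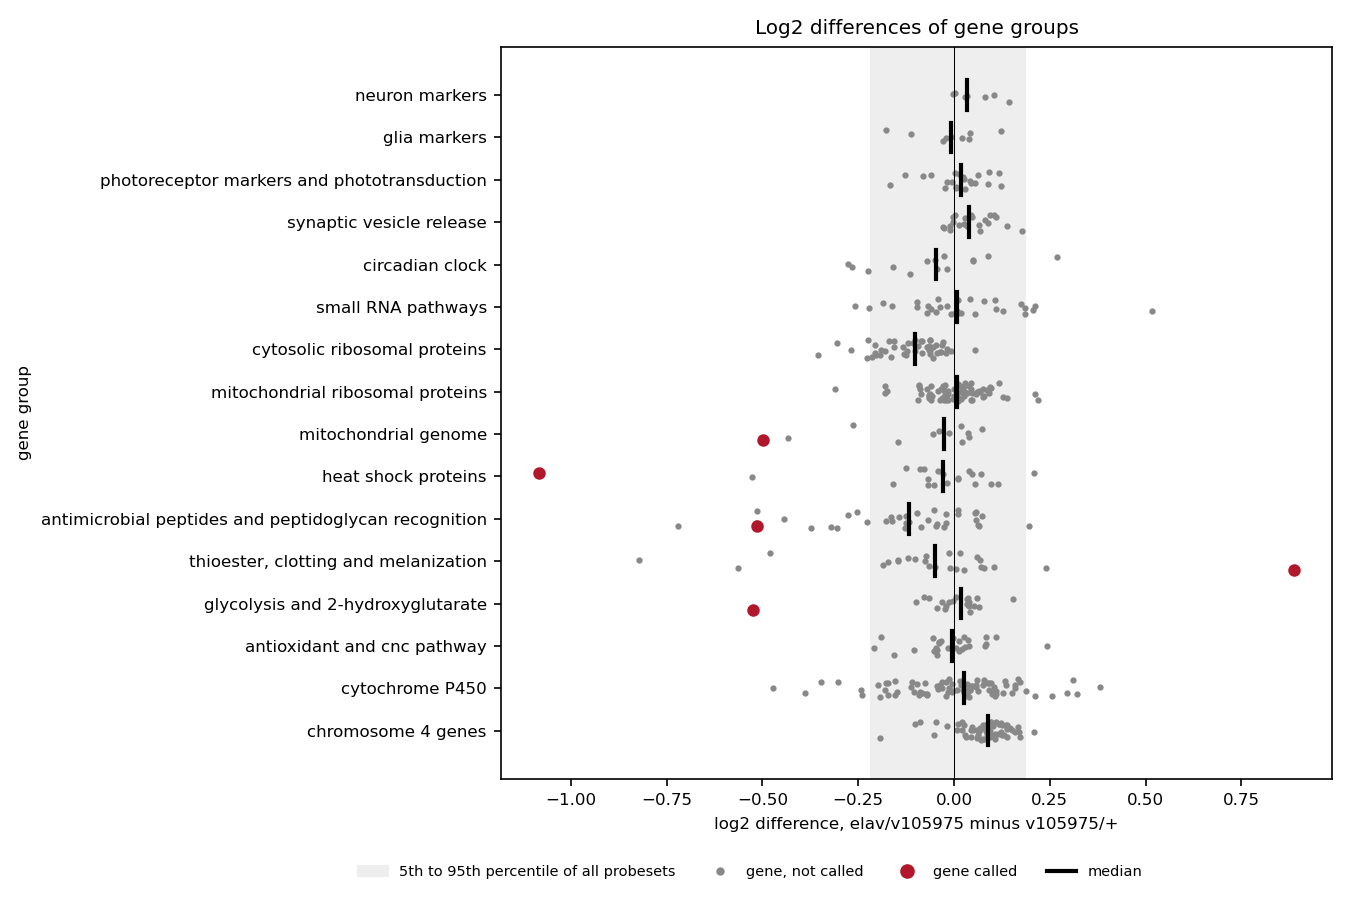
Log2 difference of elav/v105975 minus v105975/+ (horizontal axis) for the genes of 16 groups (vertical axis). Each point is a gene, red where it was called, the black bar is the median of the group and the grey band holds the 5th to 95th percentile of all probesets. The medians of cytosolic ribosomal proteins (-0.10) and of chromosome 4 genes (0.09) lie off 0, with no gene called in either group.

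MicroRNA genes held 3 of the calls that were kept without any single array. These came from 196 measured microRNA genes and were all higher in elav/v105975. An unadjusted p under 0.05 was reached by 20 of the 196, 16 of them higher, beside 8.78% of all probesets. By RefSeq biotype, 1.54% of microRNA probesets were called, against 0.276% of protein-coding ones. The array reads microRNA genes from total RNA and does not tell a mature microRNA from its precursor.

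mir-4946 was at 3.56, 3.44, 3.54, 3.08 and 3.24 in elav/v105975 and 2.22, 2.26, 2.11, 2.03 and 2.26 in v105975/+ (log2 difference 1.20, standard error 0.0963, adjusted p = 3.98e-04 from limma). A member of the mir-2 family, whose microRNAs are known for silencing cell death genes, mir-2b-2 was at 5.89, 5.76, 5.86, 5.19 and 5.41 in elav/v105975 and 4.52, 4.54, 4.61, 4.25 and 4.72 in v105975/+ (log2 difference 1.09, standard error 0.141, adjusted p = 0.00674). mir-4954 was at 8.07, 8.12, 8.16, 8.004 and 7.97 in elav/v105975 and 7.73, 7.43, 7.61, 7.60 and 7.56 in v105975/+ (log2 difference 0.48, adjusted p = 0.00678). The groups stayed apart for each of them. The probeset of mir-4946 is among the dimmest 25%, so that its difference is measured close to background. In elav/+ the mean was 2.84 for mir-4946, 5.55 for mir-2b-2 and 7.60 for mir-4954, which is between the genotypes, near elav/v105975 and near v105975/+ in turn.

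A source of endogenous small interfering RNAs was lower where the hairpin was driven. hpRNA:CR33940, a long hairpin transcript that is itself cut by Dicer, was at 6.50, 6.29, 6.19, 6.45 and 6.35 in elav/v105975 and 6.66, 6.74, 6.74, 6.85 and 6.72 in v105975/+ (log2 difference -0.39, standard error 0.0664, adjusted p = 0.0368 from limma). It was lowest in elav/+, with a mean of 5.76. The call was lost without any array other than elav/v105975 replicate 1 (at most 0.127) and in the fit of all 15 arrays (0.196). Of 31 measured genes of the small RNA pathways none was called by limma and 5 had an unadjusted p under 0.05. AGO3, an Argonaute of the piRNA pathway, was at 3.55 to 4.08 in elav/v105975 and 2.95 to 3.39 in v105975/+ (log2 difference 0.52, adjusted p = 0.142). Genes that process a hairpin stood close to 0, Dcr-2, which cuts it, at -0.04 (adjusted p = 0.907) and r2d2, which helps load the cut RNA, at 0.13 (adjusted p = 0.728). Of 218 measured snoRNA genes none was called and 19 had an unadjusted p under 0.05, beside 8.78% of all probesets. Of these 19, 16 were higher in elav/v105975. The list's median was 0.02, and its array means overlapped, at 7.73 to 7.85 in elav/v105975 and 7.67 to 7.90 in v105975/+.

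Several called genes are known from the germ line or by number alone. The gene tut, a partner of the germ cell differentiation factors bam and bgcn, was at 5.37, 5.44, 5.64, 5.29 and 4.99 in elav/v105975 and 4.38, 4.55, 4.52, 4.44 and 4.55 in v105975/+ (log2 difference 0.86, standard error 0.102, adjusted p = 0.00483 from limma), and at 5.10 in elav/+. It was the only call of 9 germ line and testis markers. ACXC, an adenylyl cyclase, was at 4.01, 4.12, 3.99, 3.80 and 3.84 in elav/v105975 and 4.74, 4.54, 4.72, 4.74 and 4.44 in v105975/+ (log2 difference -0.68, adjusted p = 0.00483), with 4.19 in elav/+. The cuticle protein gene Cpr11B was the only call of 73 (log2 difference 0.45, adjusted p = 0.0401), and lost it without any array other than v105975/+ replicate 5 (at most 0.129).

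CG18577 was at 5.17, 4.96, 4.87, 4.70 and 4.96 in elav/v105975 and 3.73, 3.75, 3.64, 3.49 and 3.82 in v105975/+, which is 2.37-fold higher (log2 difference 1.25, adjusted p = 1.67e-04 from limma), and its elav/+ mean was 5.11. CG43182 was at 4.92, 5.28, 5.23, 5.05 and 4.91 in elav/v105975 and 4.25, 4.27, 4.01, 4.13 and 3.91 in v105975/+ (log2 difference 0.97, adjusted p = 0.00183), with an elav/+ mean of 3.66. CG4408 was lower in elav/v105975, at 5.03, 4.97, 4.98, 5.34 and 5.25, against 5.94, 6.07, 6.26, 6.22 and 6.48 in v105975/+ (log2 difference -1.08, adjusted p = 0.00183), with an elav/+ mean of 5.95. The elav/+ mean thus stood beyond elav/v105975 for CG18577, beyond v105975/+ for CG43182 and near v105975/+ for CG4408. CG4757 had the lowest log2 difference of all named calls (-1.27, adjusted p = 0.0382), and lost it without any array other than v105975/+ replicate 3 (at most 0.114).

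The remaining named calls have no role given here. CG5639, whose call was kept without any single array, was at 6.50, 6.58, 6.61, 6.62 and 6.60 in elav/v105975 and 6.25, 6.09, 6.09, 6.04 and 5.92 in v105975/+ (log2 difference 0.50, adjusted p = 0.00611 from limma). The long noncoding RNA lncRNA:CR43870 was also higher in elav/v105975 (log2 difference 0.77, adjusted p = 0.0164), with a mean of 5.69, against 4.92 in v105975/+ and 5.72 in elav/+, and lost its call without elav/v105975 replicate 2 or v105975/+ replicate 4 (at most 0.0568). CG43291 was at 3.02, 2.98, 3.67, 3.63 and 3.20 in elav/v105975 and 4.16, 4.92, 4.71, 4.31 and 4.39 in v105975/+ (log2 difference -1.20, adjusted p = 0.0158), lost without elav/v105975 replicate 2 or 5 (at most 0.0522), and like lcs it is among the dimmest 25% of probesets. All 3 kept the groups apart in every array. CG13962 was higher in elav/v105975 (log2 difference 0.47) and CG13965, CG10341 and lcs were lower (-0.93, -0.55 and -0.79). The call of CG13962 was lost without elav/v105975 replicate 1 or 3 or any v105975/+ array (at most 0.075), and that of CG13965 without elav/v105975 replicates 1 to 3 or 5 or v105975/+ replicates 2, 4 or 5 (at most 0.0791). CG10341 lost its call without elav/v105975 replicates 2 to 5 or v105975/+ replicates 1 or 3 to 5 (at most 0.0904), and lcs without replicates 1, 2, 4 or 5 of elav/v105975 or 1 to 3 or 5 of v105975/+ (at most 0.111).

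The levels in elav/+ divide the calls further. Among the 40 named genes, the elav/+ mean lay on the far side of v105975/+ for 15, so that v105975/+ stood between elav/v105975 and elav/+. These include Clic, D2hgdh, numb, Ddc and CG43182. For 9 it lay between the means but nearer v105975/+, as with w, Tep4 and CG4408, and for 8 between them but nearer elav/v105975, as with tut, ACXC, veli, mir-4946 and mir-2b-2. For another 8 it lay beyond elav/v105975, as with CG18577, ND2, Hsp70Bbb and hpRNA:CR33940. Of these, hpRNA:CR33940 in elav/v105975 was nearer to v105975/+ than to elav/+. Over the 51 distinct profiles, named or not, the counts in the same order were 15, 14, 12 and 10. The elav/+ arrays had no part in the test, and no difference from them was tested here.

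**Figure D4:**
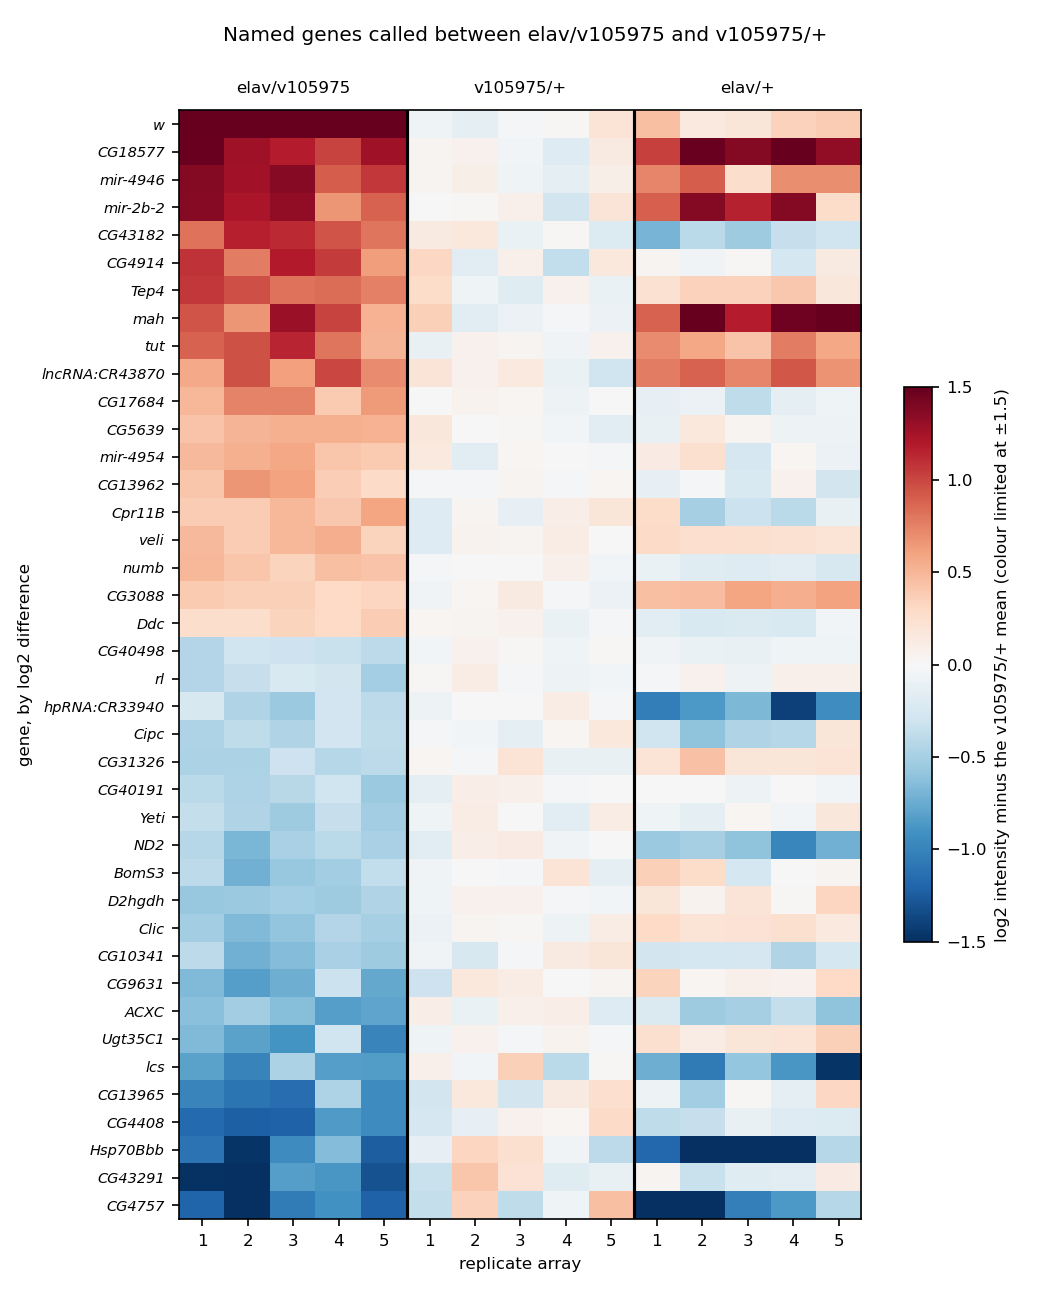
Log2 intensity of the 40 named genes called between elav/v105975 and v105975/+, as the difference from the v105975/+ mean (colour, limited at ±1.5), in every array (columns, by genotype and replicate) with genes ordered by their log2 difference (rows). The elav/v105975 columns are red for the 19 genes called higher and blue for the 21 called lower, and the elav/+ columns match them for some genes (CG18577, mah, Hsp70Bbb) and not for others (w, numb, D2hgdh).

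Called genes often lay near each other on the chromosomes. In gene order (RefSeq, assembly Release 6 plus ISO1 MT), 39 called genes could be placed among 13421 measured ones. Of these, 13 (33.3%) had another called gene within 10 measured genes, as against 4.45% of the 13382 genes that were not called. Within 25 genes the shares were 48.7% and 9.88%, and within 50 genes 56.4% and 18.0%. Members of a gene family can lie side by side, and the share this adds was not tested. By arm, calls made up 0.332% of probesets on X, 0.334% on 2L, 0.217% on 2R, 0.189% on 3L and 0.367% on 3R.

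A run of calls lay next to the centromere of 2R. It and the stretches described after it were chosen after their values were seen and are described without a test. Of the 40 measured genes nearest the centromere there, 5 were called (12.5%), against 1 of the other 2715 on the arm, and the 40 nearest genes of X, 2L, 3L and 3R held none. Only 1 of the 5 calls was higher in elav/v105975, but 32 of the 40 genes had a log2 difference above 0, with a median of 0.07. An unadjusted p under 0.05 was reached by 15 of the 40, beside 8.78% of all probesets. CG40498 (9.14, 9.28, 9.26, 9.24 and 9.18 in elav/v105975, against 9.54, 9.64, 9.60, 9.51 and 9.59 in v105975/+) was lower (log2 difference -0.36, adjusted p = 0.00865 from limma). So were rl, the fly ERK kinase, CG40191 and Yeti, a chromatin protein. CG17684, a few genes further on, was higher, at 9.42, 9.66, 9.66, 9.31 and 9.56 in elav/v105975 and 8.91, 8.97, 8.95, 8.85 and 8.92 in v105975/+ (log2 difference 0.60, adjusted p = 0.00492). The elav/+ means of CG40191, Yeti and rl, 8.33, 8.88 and 9.35, were close to those of v105975/+, 8.36, 8.89 and 9.33, whereas elav/v105975 was at 7.93, 8.45 and 8.97. The calls of CG40191, Yeti and rl did not hold without single arrays: CG40191 was lost without elav/v105975 or v105975/+ replicates 2 or 3 (at most 0.0564), Yeti without replicates 2, 3 or 5 of either genotype (at most 0.0737) and rl without any array (at most 0.154).

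**Figure D5:**
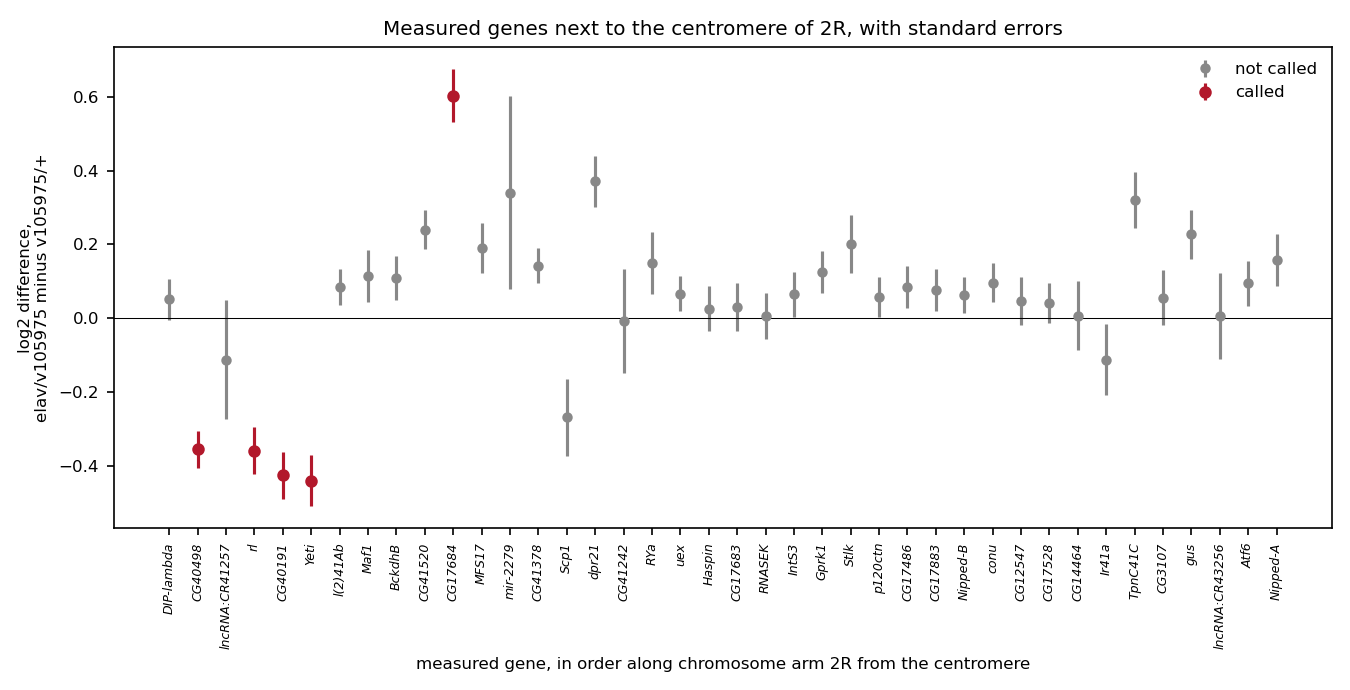
Log2 difference of elav/v105975 minus v105975/+ with its standard error (vertical axis) for the 40 measured genes nearest the centromere of chromosome arm 2R, in gene order (horizontal axis). Red marks the 5 called genes, of which CG40498, rl, CG40191 and Yeti lie below 0 and CG17684 lies above it. Of all 40 genes, 32 lie above 0.

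Other runs lay on 2L and 3R. On 2L, the 167 measured genes from CG10341 to CG13965 held 7 calls (4.19%), among them Ddc, Tep4, mir-4946 and mir-2b-2, of which 5 were higher and 2 lower in elav/v105975. On 3R, 3 of the 14 genes from Ugt35C1 to CG18577 were called, 1 higher and 2 lower, and 3 of the 6 from CG31326 to CG43291, all lower. On X, CG43182 lies near elav, the gene that names the driver. Of the 18 measured genes from CG43182 to elav it was the only call, and 5 had an unadjusted p under 0.05. CG43182 and elav, chosen as the ends of this stretch, were among the 5. Chromosome 4 had no call, but 66 of its 72 measured probesets had log2 differences above 0, with a median of 0.09 and 17 at an unadjusted p under 0.05. The mean over chromosome 4 ran from 8.83 to 8.88 in elav/v105975 arrays, from 8.71 to 8.83 in v105975/+ arrays and from 8.69 to 8.72 in elav/+ arrays, and the ranges of elav/v105975 and v105975/+ just overlapped.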

How the data were processed

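Total RNA of fly heads was hybridized to Affymetrix Drosophila Gene 1.0 ST arrays. The authors corrected the background, normalized by quantiles and summarized probesets with RMA (oligo 1.44.0 in the submitters' processing notes), and deposited the resulting log2 intensity of each probeset. Quantile normalization makes array distributions alike, so a shift shared by most transcripts cannot be seen. The genome build of the annotation is not stated. The number of arrays limits the precision.

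The 10 arrays of elav/v105975 and v105975/+ were fitted with limma 3.58.1 (R 4.3.3) on the values as deposited, with lmFit and eBayes. All 16322 probesets entered the Benjamini-Hochberg adjustment, and a probeset was called at an adjusted p of 0.05 or less. Single genes were also tested by exact two-sided permutation over the 252 divisions of 10 arrays. The fit was tested on simulated data beforehand. Of the probesets, 13441 had 1 symbol in the platform annotation, 555 had several, 209 were named through the paper's tables by name only and 2117 had no name. Of 13650 named probesets, 13627 matched a RefSeq gene. Symbols were updated to RefSeq. Lists took 1 probeset per gene, the one with the highest mean.

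The comparison, the 35 gene lists and the genes to be named were chosen with earlier results of these data known. The rule named Clic, elav, w, tio, numb and Ddc, the 20 highest and 20 lowest log2 differences among named calls without overlap between the groups, and up to 3 called members of each list. It gave 41 genes. Genes named beside them, such as CG40498, fon, AGO3, per and RpS13, were picked after their values were seen. Alternatives changed the fit, the prior variance, array weights, dim probesets, normalization, threshold and each array, and, chosen after seeing the data, counted identical probesets once.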

Additional observations from a re-analysis of the deposited data

Results flagged for a closer look

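Within groups of 5 arrays, 82 were examined for a single array standing apart by Dixon's test, and 5 did so, where chance alone gives about 1 in 20. Replicate 1 of elav/v105975 was low for CG5639, at 6.50 against 6.58 to 6.62 in the other 4 arrays. Replicate 2 of elav/v105975 was low for CG4757, at 3.62 against 4.37 to 4.68. Replicate 4 of elav/v105975 was high for CG13965, at 5.58 against 4.90 to 5.10. In v105975/+, replicate 4 was high for numb, at 8.30 against 8.19 to 8.21, and replicate 1 was high for mah, at 5.15 against 4.63 to 4.77. Of these genes, CG5639 and numb kept their call without any single array, whereas CG4757, CG13965 and mah did not.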

How the results depend on the processing

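No called gene that was named changed direction under any alternative run. Most runs could not have shown such a change. Without overlap between the groups, leaving out an array cannot reverse a difference, and fits that alter only the variance leave it unchanged. The medians of a few gene lists lay so near 0 that their sign varied. The 60 calls became 27 with the replicate number as a block (19 higher, 8 lower), and in that fit Clic kept a log2 difference of -0.54 with an adjusted p of 0.0524, and the calls of numb (0.0524), Ddc (0.177), mah and CG4914 were among those lost. Over all probesets same-numbered arrays correlated weakly in their deviations (0.00653 to 0.0913, and no array correlated best with its own number). Fat body markers were nevertheless high in replicates 4 and 5 of both genotypes, whereas replicate 1 was highest in elav/+. Whether a number marks a shared batch is not stated. With 1 probeset per gene symbol there were 39 calls (19 higher), at an adjusted p of 0.01 there were 33 (10 lower), and with at least 1.5-fold 33 (11 lower). Leaving out each array in turn gave 37 to 51 calls, 24 to 29 higher and 11 to 23 lower, with the fewest, 37, without elav/v105975 replicate 2 or 3 and 39 without v105975/+ replicate 2. The lower calls were 11 and 13 without elav/v105975 replicates 2 and 3, 15 without its replicate 5 and 12 without v105975/+ replicate 2. The fit of all 15 arrays gave 68 calls (53 shared with the fit of 10), an intensity trend 80, array weights 69, a repeated quantile normalization 66, median centring 62, a robust prior 60, the dimmest 25% left out 53 and identical probesets counted once 49. Over all alternatives the adjusted p of Clic lay between 1.02e-04 and 0.0524. In the fit of all 15 arrays Cpr11B, CG4757, Hsp70Bbb, BomS3, Cipc and hpRNA:CR33940 were no longer called. Of the calls, 13 lie in the dimmest 25% of probesets, where a difference is measured close to background. The 9 unnamed probesets with identical values are among these 13. They are also among the 33 calls at an adjusted p of 0.01 and the 33 with at least 1.5-fold.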
